A study of Homo sapiens with 6 samples.

Results

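The homologous recombination and Fanconi anemia genes were examined in U2OS cells depleted of LSD1. They were chosen as a list of symbols for genes of these pathways, and 47 of the 15585 genes in the table are on it, of which 45 had enough reads to be tested. U2OS is a human osteosarcoma line that maintains its telomeres by a recombination-based mechanism. LSD1 (gene KDM1A) is the histone demethylase that removes methyl groups from H3K4me1 and H3K4me2, and the study asked, by RNA-seq, whether its loss changes the expression of replication genes. RNAiMAX was used to deliver a control siRNA (siCTR, 3 libraries) or an siRNA against LSD1 (siLSD1, 3 libraries), and RNA was taken at 48 h. All 6 libraries come from 1 unmodified line, and which of the LSD1 siRNA sequences was used for RNA-seq is not given in the sources used here. Nothing states that the libraries of a group came from separate cultures, so the p-values measure the spread between these libraries, which may be technical. In bulk RNA, fewer cells with a transcript and less transcript per cell cannot be told apart.

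Homologous recombination repairs a double-strand break, or a broken replication fork, by copying the sister chromatid. The ends are resected, BRCA2 and its helpers prepare the single strand, the strand invades the sister, and the joint molecules are dissolved or cut. The Fanconi anemia pathway handles crosslinks between the DNA strands: a core ubiquitin ligase modifies the FANCD2-FANCI pair, which brings nucleases to the stalled fork and passes the break on to recombination. Recombination acts mainly in S and G2 phase, when a sister chromatid is present.

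The 6 libraries held 12513511 to 13561344 counted reads, and the 47 genes together took 0.2865 to 0.3166% of them. KDM1A was measured at 473, 506 and 489 CPM in siCTR (read counts scaled to library depth with TMM) and at 82.7, 96.1 and 92.4 CPM in siLSD1. It fell by 2.44 on the log2 scale (SE 0.11, edgeR quasi-likelihood test, adjusted p = 2.27e-07). The cell line labels were checked with marker lists. Vimentin (VIM), a mesenchymal marker, was at 731 to 880 CPM in all libraries, and the collagen gene COL1A1 at 9.07 to 14.9 CPM, whereas the bone markers RUNX2 and SPARC stayed under 0.3 CPM. Summed FPKM (deposited values, scaled to gene length and library depth) of the 9 mesenchymal markers was 1074 to 1335 in siCTR and 1086 to 1230 in siLSD1. It was 11.1 to 12.9 and 9.81 to 12.5 for 7 epithelial markers, and 1.98 to 2.84 and 1.29 to 1.57 for 6 blood markers. The largest parts of the mesenchymal sum were LGALS1, VIM and S100A6 (means of 449, 428 and 292 FPKM in siCTR). COL1A1 was at 1.62 FPKM in siCTR, below CLDN4 of the epithelial list at 5.48 FPKM. The mesenchymal sum is thus not a measure of the bone lineage. FN1 (fibronectin) was at 29.4, 18.5 and 32.2 CPM in siCTR and at 47.7, 48.9 and 58.9 CPM in siLSD1, and TGFBI, a secreted matrix protein, at 3.93, 3.58 and 4.46 CPM and at 8.64, 10.4 and 8.90 CPM. Both were higher in siLSD1, by 0.95 and 1.22 on the log2 scale (edgeR adjusted p = 0.0216 and 0.00776). The lowest p of the epithelial list were those of CDH1 (0.77, adjusted p = 0.0699) and CLDN7 (-0.50, 0.3156), and HBA1 of the blood list was at -0.71 (adjusted p = 0.4436), all from edgeR. For these markers, their part in the results below was not tested.

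LSD1 depletion was not accompanied by a change of any recombination or Fanconi gene that passed the test. At an adjusted p under 0.05 in edgeR, 0 of the 45 genes were called in either direction while 1.44% of all 11844 genes were (171 genes). DESeq2 (2.73% of all genes) and limma-voom (1.34%) also called 0 of the 45. With counts corrected for GC content and gene length 1 was called (H2AFX), and the same correction called 7.39% of all genes. The lowest adjusted p was 0.1925 (RAD51D). Without adjustment, 4 genes had a p under 0.05 and higher values in siLSD1 (RAD51D, XRCC2, EME1 and FANCD2) and 0 had lower values. Over all genes, 7.48% were higher and 6.55% lower at that threshold in the same edgeR fit. The 4 genes are thus 8.89% of the list, against 14% of all genes in both directions. This split was not stable. DESeq2 gave 2 higher and 0 lower (7.04% and 6.13% of all genes), and the GC correction 8 higher and 4 lower (12.4% and 11.9% of all genes). Leaving out single libraries gave 1 higher (without siCTR replicate 2) to 5 higher (without siLSD1 replicate 1), where 5.07 to 7.72% of all genes were higher. The same fits gave 0 to 4 lower (4 without siCTR replicate 1), where 3.79 to 7.43% of all genes were lower. The 45 log2 fold changes ran from -0.29 (XRCC3) to 0.36 (RAD51D), which is 0.816-fold to 1.28-fold. Their median was 0.065 against -0.014 for all genes, and 27 were above and 18 below 0. Between replicates that median varied by 0.0644 (SD), and it was 0.0186 with the GC correction and 0.015 without siCTR replicate 2. The median absolute log2 fold change was 0.132 in the list and 0.153 over all genes.

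The intervals state how large a change these libraries leave room for. The 95% confidence interval of a log2 fold change reached, at the median of the list, 0.294 to either side of the estimate. For 29 of the 45 genes the whole interval lay between -0.5 and 0.5, and for all 45 it lay between -1 and 1. In 8 genes every siLSD1 library lay above every siCTR library (EXO1, RAD51B, RAD51D, XRCC2, RAD52, RAD54L, FANCD2 and EME1), as was the case for 11.4% of all genes tested. In 3 genes every siLSD1 library lay below (BARD1, FANCM and UBE2T), against 9.97% of all genes. Single libraries carried much of many values. Leaving out 1 library shrank the fold change by more than 1.5 times or turned its sign in 39 of the 45 genes, most often siCTR replicate 2 (23 genes) and siLSD1 replicate 3 (17 genes). The other 6 were RAD51D, EME1, FANCD2, FANCM, RAD52 and RAD54L.

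**Figure D1:**
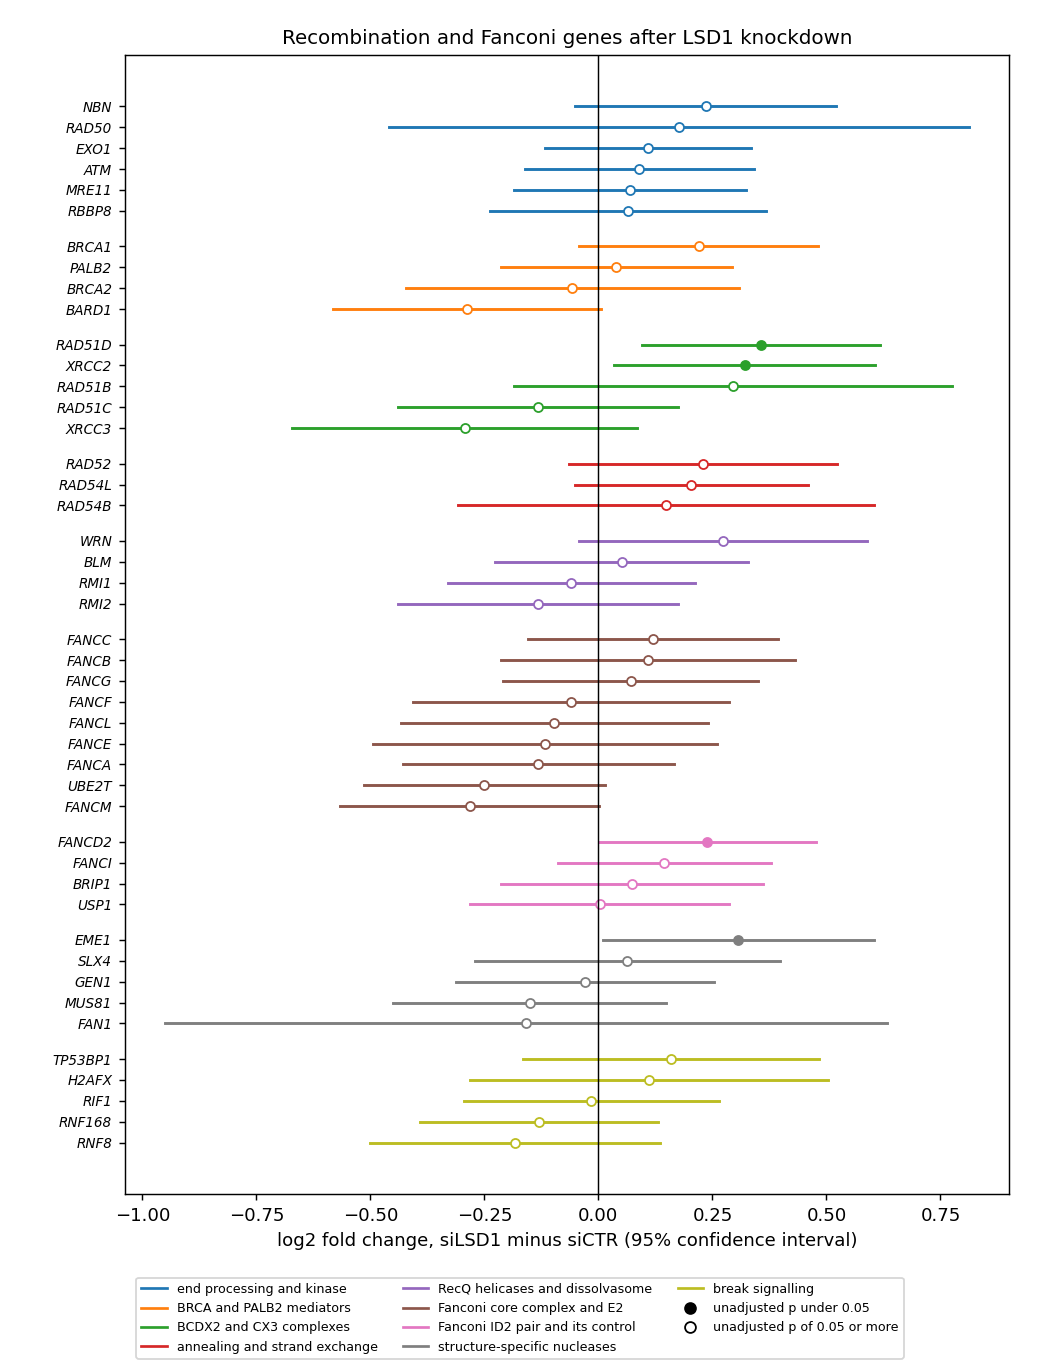
Log2 fold change of the 45 tested genes (siLSD1 minus siCTR, 3 libraries each, horizontal axis), grouped by role, with 95% confidence intervals from the edgeR fit as bars. The 4 filled points (RAD51D, XRCC2, FANCD2 and EME1) have an unadjusted p under 0.05, and none of the 45 has an adjusted p under 0.05.

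The subunits of the BCDX2 and CX3 complexes held the highest and the lowest values of the list. BCDX2 (RAD51B, RAD51C, RAD51D and XRCC2) and CX3 (RAD51C and XRCC3) assist strand exchange. RAD51D was measured at 25.1, 25.2 and 26.5 CPM in siCTR and at 34.5, 33.1 and 30.8 CPM in siLSD1. The groups were well apart, and siCTR was tight. The log2 fold change was 0.36 (SE 0.12, interval 0.10 to 0.62, edgeR unadjusted p = 0.0111, adjusted p = 0.1925). XRCC2 was at 49.8, 40.8 and 56.0 CPM in siCTR and at 58.0, 62.0 and 63.2 CPM in siLSD1. Its groups did not overlap but came close, and siCTR replicate 2 was the lowest library. Its log2 fold change was 0.32 (SE 0.13, interval 0.03 to 0.61, edgeR unadjusted p = 0.0312, adjusted p = 0.294). It was 0.21 without siCTR replicate 2, and the edgeR adjusted p was 0.0862 with the GC correction.

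The third higher member, RAD51B, rests on few reads. It was at 5.16, 3.35 and 5.13 CPM in siCTR and at 5.22, 5.38 and 6.15 CPM in siLSD1 (log2 fold change 0.29, interval -0.19 to 0.77, and 0.12 without siCTR replicate 2). RAD51C, the subunit that both complexes share, had a log2 fold change of -0.13 (interval -0.44 to 0.18), which came to 0.00 without siCTR replicate 2. XRCC3 was at 24.3, 25.0 and 20.2 CPM in siCTR and at 19.7, 22.8 and 14.2 CPM in siLSD1. Its groups overlapped, and the low value of siLSD1 replicate 3 made up much of the log2 fold change of -0.29 (interval -0.67 to 0.09), which was -0.12 without that library. In GENCODE 44, 76.7% of the exon bases of XRCC3 also lie in KLC1 on the opposite strand. Whether counting used strand is not given in the sources used here, so reads of this pair cannot be told apart.

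The start regions of the 4 genes with an unadjusted p under 0.05 are shown because these are the genes with the most distinct values. Each is 1 window of 300 bases, from 250 bases before to 50 bases after an annotated start (RefSeq, GRCh38.p14, written 5′ to 3′ on the strand of the gene). Capitals mark a word bound by E2F factors, which drive S-phase transcription.
RAD51D, chr17:35119709-35120008, minus strand: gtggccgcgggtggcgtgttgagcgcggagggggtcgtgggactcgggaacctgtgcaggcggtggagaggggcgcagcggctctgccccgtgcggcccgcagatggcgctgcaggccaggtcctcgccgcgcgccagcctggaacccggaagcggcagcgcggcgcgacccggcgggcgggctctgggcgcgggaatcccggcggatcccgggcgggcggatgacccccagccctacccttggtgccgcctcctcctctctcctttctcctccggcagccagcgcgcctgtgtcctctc
EME1, chr17:50372979-50373278, plus strand: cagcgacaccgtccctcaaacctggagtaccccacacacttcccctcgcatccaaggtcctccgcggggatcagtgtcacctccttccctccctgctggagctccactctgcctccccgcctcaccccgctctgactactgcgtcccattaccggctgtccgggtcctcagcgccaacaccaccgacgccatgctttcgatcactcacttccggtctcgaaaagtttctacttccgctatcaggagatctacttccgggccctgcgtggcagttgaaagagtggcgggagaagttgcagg
XRCC2, chr7:152676092-152676391, minus strand: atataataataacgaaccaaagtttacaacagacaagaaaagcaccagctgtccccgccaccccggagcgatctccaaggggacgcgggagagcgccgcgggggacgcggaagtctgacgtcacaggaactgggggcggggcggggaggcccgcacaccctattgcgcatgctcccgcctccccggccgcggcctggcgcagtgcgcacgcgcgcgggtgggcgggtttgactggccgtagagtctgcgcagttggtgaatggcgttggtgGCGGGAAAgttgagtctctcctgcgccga
FANCD2, chr3:10026187-10026486, plus strand: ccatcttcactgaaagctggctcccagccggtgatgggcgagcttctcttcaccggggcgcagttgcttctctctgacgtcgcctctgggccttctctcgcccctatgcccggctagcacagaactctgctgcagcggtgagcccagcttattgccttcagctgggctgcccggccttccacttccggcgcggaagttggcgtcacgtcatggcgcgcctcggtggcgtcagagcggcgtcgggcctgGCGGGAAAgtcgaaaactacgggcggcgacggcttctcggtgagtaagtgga
XRCC2 and FANCD2 each held 1 such word close to the start, and the windows of RAD51D and EME1 held none. The words searched, on both strands, were TTTCCCGC, TTTCGCGC, TTTGCCGC and TTTGGCGC, and a match describes the letters only.

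Windows of 42 of the 47 genes were used (56 windows, since some genes have several starts). NBN, WRN, RAD54B, RMI2 and FANCI were not among them. The windows of all genes were not shown to be selected in the same way, so the shares below are a rough comparison. An E2F word stood in 7 of the 56 windows (12.5%), each of a different gene, whereas it stood in 3.3% of the 34796 windows of all genes. CCAAT, the word of the factor NF-Y, stood in 41.07% of the members' windows and 34.62% of all. TTTGAA or TTTAAA, the words of the CHR element of genes that peak in G2 and mitosis, stood in 23.21% and 24.01%. The other sites are shown with 11 bases on either side to let their surroundings be compared, again with the word in capitals.
EXO1, chr1:241848197-241848226, plus strand: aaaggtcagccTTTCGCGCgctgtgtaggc
GEN1, chr2:17753859-17753888, plus strand: cagttgcggggTTTCGCGCcgccggagtct
RMI1, chr9:83980762-83980791, plus strand: ggcgcgagcgcGCGGCAAAtcgggcgggaa
FANCA, chr16:89816801-89816830, minus strand: actacaccgcgGCGGCAAAgccaaacgcaa
FANCC, chr9:95317863-95317892, minus strand: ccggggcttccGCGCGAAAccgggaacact
FANCC, chr9:95317737-95317766, minus strand: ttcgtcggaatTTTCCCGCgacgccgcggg
The sites of EXO1, GEN1 and RMI1 lay within 32 bases of the start, and FANCC had 2 of them. Log2 fold changes of the 7 genes with an E2F word had a median of 0.11, with 4 above and 3 below 0. The 33 tested genes with windows but no such word had a median of 0.05. Genes with an E2F word were thus found on both sides of 0, from FANCA at -0.13 to XRCC2 at 0.32.

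All 6 genes of end processing and its kinase had values above 0, with a median log2 fold change of 0.10. In 3 of them (MRE11, RAD50 and RBBP8) the sign turned when 1 library was left out. MRE11, RAD50 and NBN form the MRN complex, which senses the break and starts resection, RBBP8 (CtIP) activates its nuclease, EXO1 extends the resected tract, and ATM is the kinase that MRN recruits. NBN was the highest of them, at 69.8, 74.0 and 70.9 CPM in siCTR and at 71.8, 80.9 and 100.01 CPM in siLSD1. siLSD1 replicates 1 and 2 lay near or just above siCTR and siLSD1 replicate 3 lay far above. Its log2 fold change of 0.24 (interval -0.05 to 0.52) was 0.09 without that library. RBBP8 was the lowest, with a log2 fold change of 0.07 (interval -0.24 to 0.37). It was at 111, 128 and 134 CPM in siCTR and at 106, 130 and 154 CPM in siLSD1, and the siLSD1 values enclosed those of siCTR. EXO1 was at 126, 122 and 120 CPM in siCTR and at 130, 128 and 141 CPM in siLSD1. Its groups did not overlap, but the log2 fold change was only 0.11 (interval -0.12 to 0.33).

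BRCA1 and BARD1, which form 1 ubiquitin ligase, lay on opposite sides of 0. BRCA1 was at 108, 95.5 and 113 CPM in siCTR and at 109, 123 and 137 CPM in siLSD1, a log2 fold change of 0.22 (interval -0.04 to 0.48, edgeR unadjusted p = 0.0923) that was 0.14 without siLSD1 replicate 3. BARD1 was at 29.03, 29.98 and 37.85 CPM in siCTR and at 26.3, 25.6 and 27.4 CPM in siLSD1, a log2 fold change of -0.29 (interval -0.58 to 0.01, edgeR unadjusted p = 0.0546). The groups overlapped for BRCA1 and not for BARD1, and the BARD1 value was -0.16 without siCTR replicate 3. PALB2, which bridges BRCA1 to BRCA2, had a log2 fold change of 0.04 (interval -0.21 to 0.29). BRCA2, a mediator of strand exchange, had one of -0.06 (interval -0.42 to 0.31).

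The 3 genes of annealing and strand exchange all lay above 0, with a median log2 fold change of 0.20. RAD52, which anneals single strands, was at 19.3, 17.4 and 19.6 CPM in siCTR and at 20.6, 24.4 and 21.1 CPM in siLSD1 (log2 fold change 0.23, interval -0.06 to 0.52). RAD54L, the motor protein that drives strand invasion, was at 40.8, 35.7 and 41.6 CPM and at 46.2, 45.0 and 44.9 CPM (0.20, interval -0.05 to 0.46). The groups did not overlap for either gene. RAD54B, its relative, was at 8.63, 5.68 and 6.99 CPM in siCTR and at 9.02, 6.18 and 8.38 CPM in siLSD1, and the groups overlapped throughout. For RAD54B, 66% of the exon bases are shared with FSBP on the same strand.

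The RecQ helicases and the dissolvasome were split, with a median log2 fold change of -0.004. WRN, the helicase lost in Werner syndrome, was the highest, at 35.0, 27.1 and 37.7 CPM in siCTR and at 35.7, 41.2 and 43.8 CPM in siLSD1. Its log2 fold change was 0.27 (interval -0.04 to 0.59), and it was 0.15 without siCTR replicate 2, the lowest library. BLM, which with TOP3A, RMI1 and RMI2 undoes double Holliday junctions, had a log2 fold change of 0.05. RMI1 was at -0.06 and RMI2, the lowest, at -0.13 (interval -0.44 to 0.18). RMI2 was at 32.7, 40.3 and 29.4 CPM in siCTR and at 32.04, 32.98 and 28.3 CPM in siLSD1, so the groups overlapped and siCTR replicate 2 was the highest.

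In the Fanconi core complex and its E2 enzyme, 6 of 9 genes lay below 0, with a median log2 fold change of -0.10. FANCM, the translocase that anchors the core complex on DNA, was at 22.7, 25.1 and 25.9 CPM in siCTR and at 20.5, 18.6 and 21.5 CPM in siLSD1. The groups did not overlap (log2 fold change -0.28, interval -0.57 to 0.00, edgeR unadjusted p = 0.0507, adjusted p = 0.3573). UBE2T, the E2 enzyme that works with the ligase subunit FANCL, was at 103, 132 and 106 CPM and at 90.8, 96.5 and 99.8 CPM. Its groups also stood apart, by a narrow gap, with siCTR replicate 2 well above the other libraries. The log2 fold change was -0.25 (interval -0.51 to 0.01, edgeR unadjusted p = 0.0614), and -0.13 without siCTR replicate 2. The remaining 7 subunits ranged from -0.13 (FANCA) to 0.12 (FANCC), and the groups overlapped for each of them. FANCC, which binds FANCE and FANCF, was at 51.9, 41.8 and 49.5 CPM in siCTR and at 50.001, 56.6 and 49.004 CPM in siLSD1.

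The ID2 pair (FANCD2 and FANCI) and the genes USP1 and BRIP1, grouped with it here, lay at or above 0, with a median log2 fold change of 0.11. FANCD2 was at 65.1, 63.1 and 68.6 CPM in siCTR and at 75.6, 81.9 and 74.7 CPM in siLSD1. The groups were separate and each was tight. Its log2 fold change was 0.24 (SE 0.11, interval 0.00 to 0.48, edgeR unadjusted p = 0.0488, adjusted p = 0.3525). FANCI, its partner, was at 187 to 211 CPM in siCTR and at 207 to 233 CPM in siLSD1 (0.14, interval -0.09 to 0.38). BRIP1 (FANCJ), the helicase that binds BRCA1, was at 0.07. USP1, the enzyme that removes ubiquitin from FANCD2, was at 192, 249 and 228 CPM in siCTR and at 192, 230 and 248 CPM in siLSD1, a log2 fold change of 0.00 (interval -0.28 to 0.29).

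Among the structure-specific nucleases, EME1 stood above the others. EME1 is a partner of the nuclease MUS81. It was at 27.4, 22.3 and 22.8 CPM in siCTR and at 33.1, 27.5 and 28.99 CPM in siLSD1. The lowest siLSD1 library lay just above the highest siCTR library. Its log2 fold change was 0.31 (SE 0.14, interval 0.01 to 0.60, edgeR unadjusted p = 0.0436, adjusted p = 0.3338), and the adjusted p was 0.1155 with the GC correction. MUS81 itself was at -0.15 (interval -0.45 to 0.15). SLX4, the scaffold for these nucleases, was at 0.06, and the Holliday junction resolvase GEN1 at -0.03. FAN1, the lowest of the group at -0.16, was at 1.54, 0.856 and 1.26 CPM in siCTR and at 1.19, 1.20 and 0.890 CPM in siLSD1, and its interval ran from -0.95 to 0.63.

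The genes of break signalling lay on both sides of 0, with a median log2 fold change of -0.02. TP53BP1 (53BP1), which protects ends from resection, was the highest at 0.16 (interval -0.17 to 0.48). It was at 132, 93.0 and 141 CPM in siCTR and at 125, 132 and 151 CPM in siLSD1, and the log2 fold change was 0.00 without siCTR replicate 2. RNF8, the ligase that starts the ubiquitin signal at breaks, was the lowest, at 58.5, 85.3 and 73.5 CPM in siCTR and at 56.5, 64.5 and 70.4 CPM in siLSD1 (-0.18, interval -0.50 to 0.13, and -0.05 without siCTR replicate 2). RNF168, which extends that signal, was at -0.13 and RIF1, which acts with 53BP1, at -0.02. H2AFX (H2AX), the histone that ATM phosphorylates around a break, was at 128, 158 and 127 CPM in siCTR and at 176, 169 and 101 CPM in siLSD1. The first and second siLSD1 libraries lay above all siCTR libraries and siLSD1 replicate 3 lay below them all. The log2 fold change was 0.11 (interval -0.28 to 0.50, edgeR adjusted p = 0.8205). It was 0.33 without siLSD1 replicate 3, and 0.36 with an edgeR adjusted p of 0.0236 when counts were corrected for GC content and gene length.

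**Figure D2:**
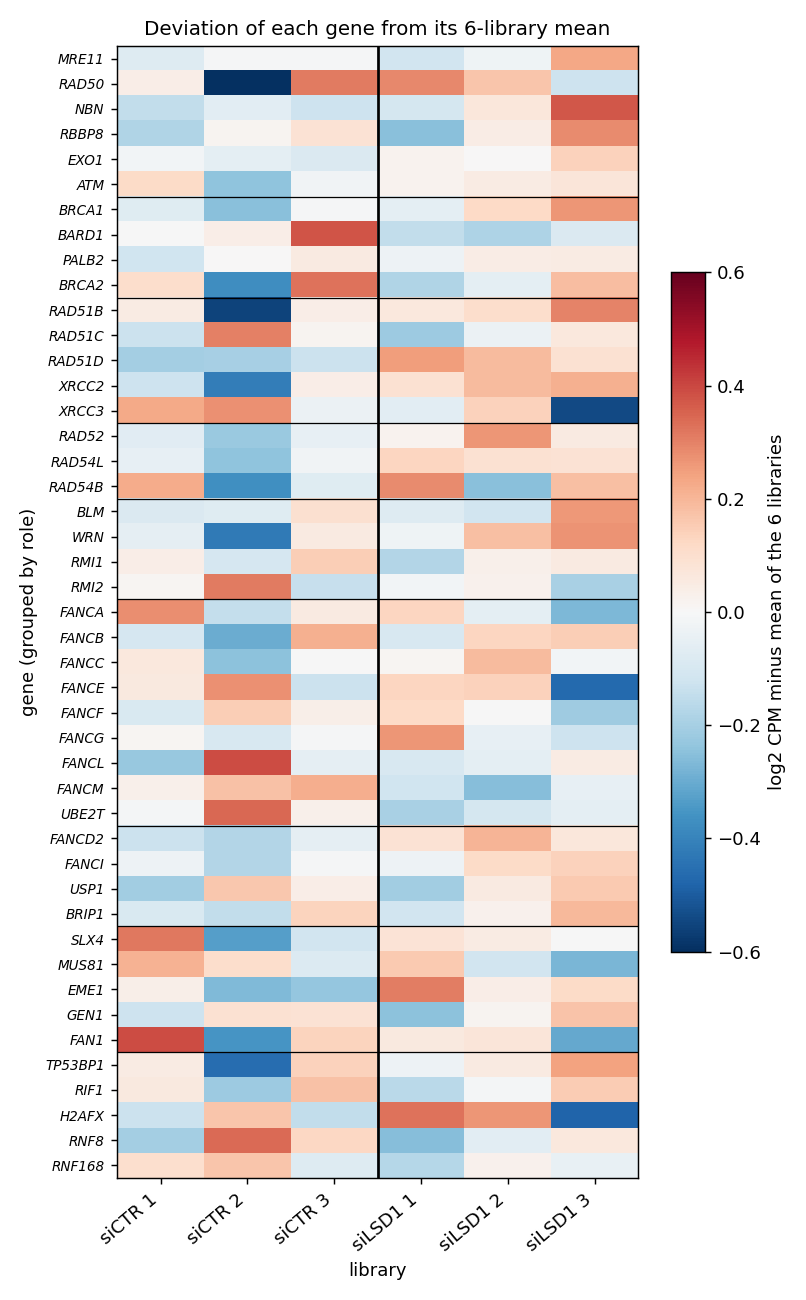
Each row is a gene, each column a library, and the color is the log2 CPM minus the mean of the gene over the 6 libraries. RAD51D and FANCD2 are blue in all siCTR and red in all siLSD1 columns, whereas siCTR replicate 2 and siLSD1 replicate 3 hold many of the strongest colors in both directions.

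Libraries of 1 group differed from each other in a way that followed base composition. Within siLSD1, the deviation of the 45 genes from their group mean had a Spearman correlation with the GC content of the transcript of 0.587 in replicate 1, 0.321 in replicate 2 and -0.719 in replicate 3. Over all genes the values were 0.704, 0.144 and -0.695. Within siCTR the values for the 45 genes were 0.341, 0.091 and -0.47. These points share a library and are a description. GC content of the 45 genes ran from 33.12% (FANCL) to 66.83% (H2AFX), with a median of 42.36%. H2AFX, XRCC3 and FANCE, all rich in GC, were lowest in siLSD1 replicate 3, and the AT-rich NBN was highest there. The log2 fold changes between the groups had a correlation of -0.015 with GC content across the 45 genes. The part of GC content in any single fold change other than through the corrected fit above was not tested.

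**Figure D3:**
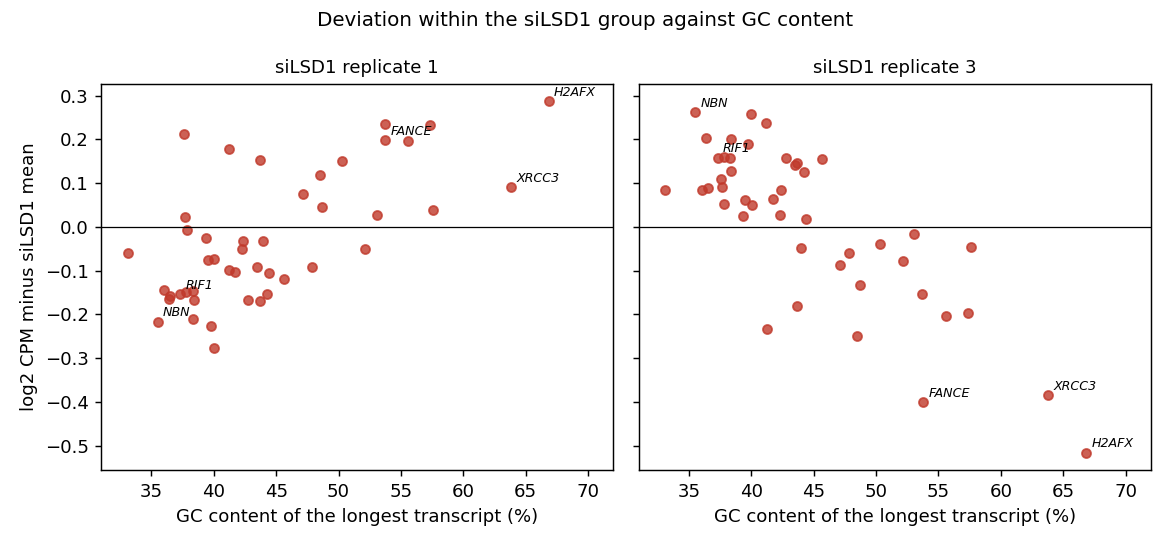
Horizontal axis, GC content of the longest annotated transcript of each of the 45 genes; vertical axis, log2 CPM in 1 siLSD1 library minus the siLSD1 mean. Of the 10 genes over 50% GC, 9 lie above 0 in replicate 1 (left) and 10 below 0 in replicate 3 (right), with H2AFX at either extreme.

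Partners within 1 complex can be compared by the ratio of their reads in each library, which no scaling to library depth changes. A correction for GC content or gene length can change such a ratio, and none was applied to the ratios. The 16 pairs were written down from known complexes after the values had been seen. Of these, 3 (18.8%) had ratios that did not overlap between the groups, counted over both directions. Among single genes, 11.4% were higher and a further 9.97% lower without overlap, so the 2 shares must be added for a comparison. No such share was computed for ratios of 2 genes. For each of the 3 pairs the exact two-sided permutation test gave p = 0.1 (adjusted over the 16 pairs, 0.5333). This is the smallest p that 3 against 3 libraries allow. BRCA1 reads per BARD1 read were 3.72, 3.18 and 2.99 in siCTR and 4.15, 4.82 and 4.98 in siLSD1. The mean was 3.30 ± 0.38 (SD, n = 3) and 4.65 ± 0.44 (SD, n = 3), a log2 difference of 0.50, so that the BRCA1 excess was larger in every siLSD1 library. EME1 reads per MUS81 read were 0.455, 0.397 and 0.462 in siCTR and 0.570, 0.572 and 0.674 in siLSD1, a log2 difference of 0.47. MRE11 reads per NBN read were 1.75, 1.73 and 1.80 in siCTR and 1.66, 1.56 and 1.51 in siLSD1, a log2 difference of -0.16.

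Ratios of the other 13 pairs overlapped. FANCD2 reads per FANCI read were 0.325 ± 0.011 (SD, n = 3) in siCTR and 0.348 ± 0.023 (SD, n = 3) in siLSD1. RAD51D reads per XRCC2 read were 0.532 ± 0.077 and 0.539 ± 0.054 (SD, n = 3 each), where the log2 fold changes of the single genes were 0.36 and 0.32. RAD51B reads per RAD51C read were 0.164, 0.0789 and 0.147 in siCTR and 0.176, 0.160 and 0.171 in siLSD1, and the log2 difference of 0.45 was 0.12 without siCTR replicate 2.

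**Figure D4:**
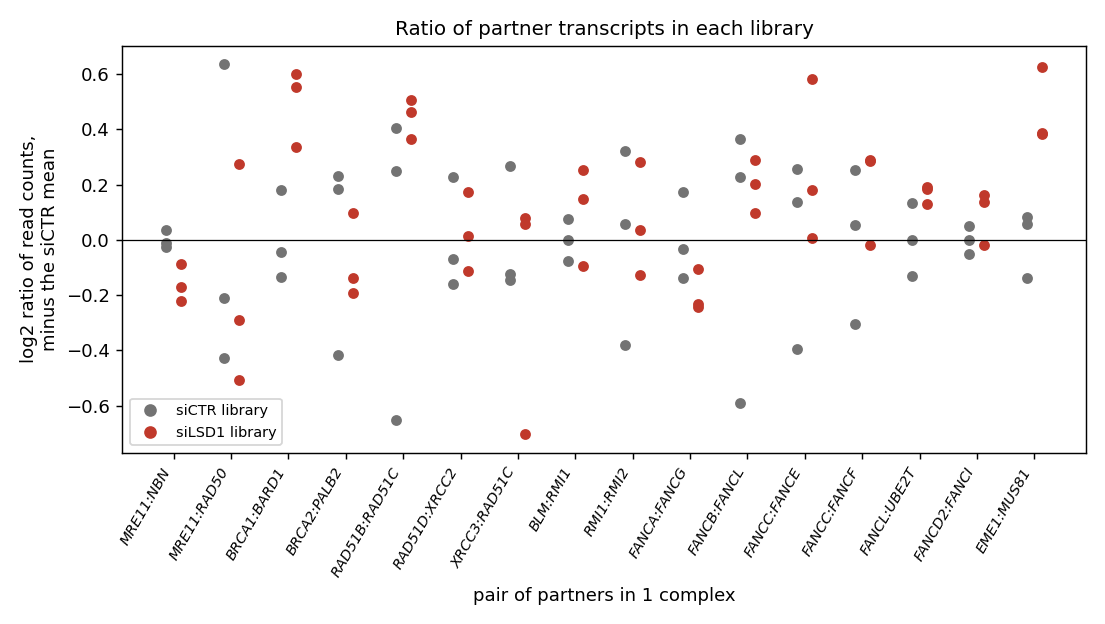
For each of the 16 pairs, points show the log2 ratio of read counts in the 6 libraries minus the siCTR mean of the pair (vertical axis, siCTR gray, siLSD1 red). The siLSD1 points of BRCA1:BARD1 and EME1:MUS81 lie above all siCTR points and those of MRE11:NBN below them, while the other 13 pairs overlap.

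Per gene length, the genes spanned more than 2 orders of magnitude in siCTR, and 37 of the 47 were at 5 FPKM or more. UBE2T was the highest at 125 ± 15.8 FPKM (SD, n = 3), followed by H2AFX at 85.2 ± 9.68, USP1 at 52.3 ± 6.13, FANCI at 39.0 ± 2.85 and EXO1 at 35.4 ± 1.19 FPKM (SD, n = 3 each). The ranges of FANCI and EXO1 overlapped, and the steps above them were larger than the spread. In siLSD1 these 5 levels were 105 ± 4.22, 92.3 ± 26.2, 52.4 ± 6.30, 43.1 ± 2.31 and 38.2 ± 1.86 FPKM (SD, n = 3 each), in the same order of means, although UBE2T and H2AFX overlapped. The large SD of H2AFX came from siLSD1 replicate 3. Among the BCDX2 subunits XRCC2 was at 15.9 ± 2.61 FPKM, RAD51D at 2.51 ± 0.081 and RAD51B at 1.07 ± 0.255 FPKM in siCTR (SD, n = 3 each).

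**Figure D5:**
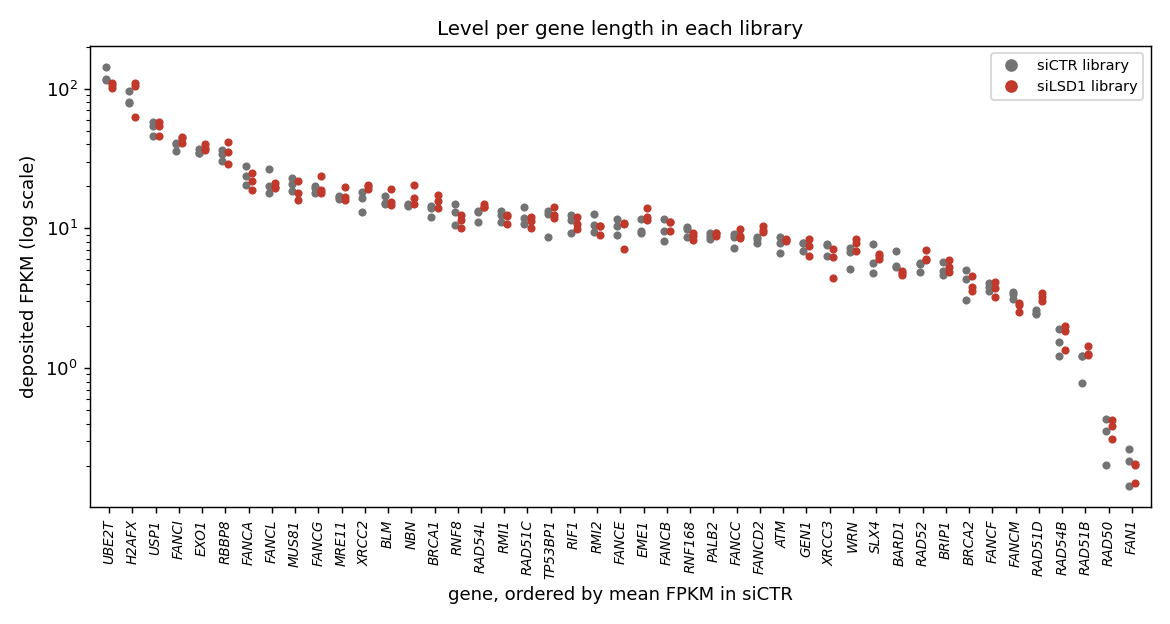
Deposited FPKM (vertical, log scale) of 45 genes in each siCTR (gray) and siLSD1 (red) library, ordered by the siCTR mean. UBE2T stands highest at 125 FPKM and FAN1 lowest at 0.207 FPKM in siCTR; TOP3A and MDC1, each with 1 read in all, are not drawn.

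A few genes were far lower in the table than their partners. RAD50 was at 0.330 ± 0.116 FPKM in siCTR (SD, n = 3), while MRE11 and NBN of the same complex were at 16.7 ± 0.319 and 14.7 ± 0.279 FPKM (SD, n = 3 each), and 35.8 to 74.8 MRE11 reads were counted per RAD50 read. Of the exon bases of RAD50, 76.9% are shared on the same strand with another annotated gene, a readthrough transcript. More than 50% of exon bases were shared on either strand in 3 of the 47 genes (RAD50, XRCC3 and RAD54B) and in 3.02% of all matched genes. FAN1 was at 0.207 ± 0.061 FPKM (SD, n = 3) with 9% of its exon bases shared. TOP3A had 1 read in siCTR and 0 in siLSD1, and MDC1, the scaffold that binds phosphorylated H2AX, also had 1 and 0. A count of 0 allows up to 0.0762 CPM over the 3 siLSD1 libraries (3 reads, counting error only), and no fold is given. BLM, RMI1 and RMI2, which work in 1 complex with TOP3A, were at 15.8 ± 1.17, 12.3 ± 1.15 and 10.8 ± 1.67 FPKM (SD, n = 3 each).

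The neighbours of these genes bear on how the low rows can be read. Of the 5 protein-coding genes on either side of MDC1 in GENCODE 44, 0 of 10 were listed in the table used here, and they include TUBB, a tubulin, and GTF2H4, a subunit of the general transcription factor TFIIH, both used by every cell. Around TOP3A, 2 of 10 neighbours reached 1 CPM. Around FAN1 2 of 10 did and around RAD50 5 of 10. GEN1, which was well counted, also had 2 of 10, so a low number is not particular to the low rows. The median over the 47 genes was 7 of 10, and 57.3% of all protein-coding genes reached 1 CPM. The rows of TOP3A and MDC1 are therefore given as listed and not as a statement that the transcript is missing from U2OS cells.

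Other genes of the same pathways were examined too. Of 38 further recombination and Fanconi genes tested, 0 passed at an adjusted p under 0.05, 2 were higher and 3 lower at an unadjusted p under 0.05 (all genes 7.48% and 6.55%), and the median log2 fold change was -0.02. BABAM2, a subunit of the BRCA1-A complex, was at 43.9, 43.9 and 42.9 CPM in siCTR and at 52.9, 56.3 and 64.1 CPM in siLSD1 (log2 fold change 0.41, edgeR adjusted p = 0.1313). CENPX (MHF2), which binds FANCM, was at 72.5, 95.8 and 71.2 CPM and at 62.0, 61.0 and 48.0 CPM (-0.49, edgeR adjusted p = 0.1494). Both stood apart between the groups. FAAP20 and FAAP100, accessory subunits of the Fanconi core complex, had log2 fold changes of -0.54 and -0.42 (edgeR adjusted p = 0.2349 and 0.2777). DMC1, which acts in meiosis, was at 0.82 with 0.55 to 1.77 CPM. In all 3 genes the groups did not overlap. Of the 38 genes, 2 were higher and 4 lower without overlap (all genes 11.4% and 9.97%). siLSD1 replicate 3 was the lowest library for CENPX, FAAP20 and FAAP100, and siCTR replicate 2 the highest for CENPX and FAAP20. No values with a library left out or with the GC correction were taken for these genes.

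Markers of the cell cycle phases in which recombination acts were measured beside them. Of 28 S-phase genes, 0 were higher and 3 lower at an unadjusted p under 0.05, where 7.48% of all genes were higher and 6.55% lower, with a median log2 fold change of -0.04 (all genes -0.014). CCNE1 was at 50.6, 52.1 and 47.9 CPM in siCTR and at 39.2, 39.4 and 36.4 CPM in siLSD1, and CCNE2 at 21.6, 22.5 and 25.7 CPM and at 16.8, 15.1 and 19.2 CPM. The log2 fold changes were -0.39 for CCNE1, -0.45 for CCNE2 and -0.26 for MCM4, the cyclins that start S phase and a subunit of the replicative helicase (edgeR adjusted p = 0.1344, 0.1718 and 0.2865). Without overlap between the groups, 3 S-phase genes were higher and 4 lower (all genes 11.4% and 9.97%). The 3 higher ones were MCM2, a partner of MCM4 in that helicase, CDC45 and E2F8 (log2 fold changes 0.16, 0.14 and 0.28). Of 25 genes of G2 and mitosis, 1 was higher (HMMR, 0.39, edgeR adjusted p = 0.2433) and 0 were lower, with a median of 0.05. The next lowest p was that of TPX2 (0.15, edgeR adjusted p = 0.5756). The part of cell cycle phase in the values of the recombination genes was not tested.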

How the data were processed

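RNA-seq libraries of U2OS cells (3 siCTR, 3 siLSD1, 48 h) were grouped and numbered by their labels. Read counts per gene were deposited as whole, unscaled reads after alignment with STAR. FPKM values, which the authors scaled to gene length and library depth, were deposited beside them. The genome build, annotation, counter and strand setting are not given in the sources used here. The authors' fold changes and p-values (DESeq2), and their subset at p under 0.05, were not used. A second set of counts of the same libraries, deposited in tables of library pairs, served as an alternative.

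Counts were tested in R 4.3.3 with edgeR 4.0.16 (TMM, quasi-likelihood test, no covariates, filterByExpr at a minimum count of 10), with Benjamini-Hochberg adjustment over 11844 genes at a threshold of 0.05. Intervals are 95% intervals from that fit, CPM values are TMM-scaled, and log values used a prior count of 2. The biological coefficient of variation was 12.6%. Alternatives were DESeq2 1.42.0, limma-voom (limma 3.58.1), RLE scaling, library size only, no filter, a filter of 1 CPM in 3 libraries, a replicate block, offsets fitted to GC content and gene length, the second counting, and each library left out. The fit was tested on simulated counts. Ratios, neighbours and figures used Python 3.11.15 (numpy 2.4.6, pandas 2.3.3, scipy 1.17.1, matplotlib 3.10.9). No 2 replicates of a group agreed within counting noise (chi-square per degree of freedom 6.45 to 29.2), as copies of 1 library would, and all 6 were used. This does not show that they are separate cultures.

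MRE11A and MRE11 are 1 gene. The members and all lists were chosen with earlier results of these data known. The genes named are KDM1A, genes with an unadjusted p under 0.05, the highest and lowest fold change of each role, the 5 highest and 5 lowest siCTR levels, and, of each other list, the genes with an adjusted p under 0.05 or else the 2 with the lowest p. All other genes with values in the text, the partner ratios and the neighbours were added after their values were seen. These genes are members such as BRCA1, RAD51C or GEN1, the markers VIM, COL1A1, LGALS1, S100A6, CLDN4, RUNX2 and SPARC, and FAAP20, FAAP100, DMC1, MCM4, MCM2, CDC45 and E2F8. Gene overlap and GC content came from GENCODE 44 (GRCh38) by symbol, where 15352 of 15585 genes matched, 389 of them through an older symbol. Promoter windows came from RefSeq. Of the blood markers, 1 besides the 6 used is not reported here.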

Additional observations from a re-analysis of the deposited data

How the results depend on the processing

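The median log2 fold change of the 45 genes stayed above 0 in every alternative run (0.0150 to 0.0824), and KDM1A stayed lower when any library was left out (-2.47 to -2.38). No scaling moved the median of all genes by more than 0.002. The main fit called 0 recombination genes at an adjusted p under 0.05 (1.44% of all genes). The GC and length correction called 1 higher (H2AFX), where 7.39% of all genes were called in either direction. With the replicate block added it called 3 higher, where 11.1% of all genes were called. These were H2AFX (0.36), EME1 (0.32) and XRCC2 (0.31), with edgeR adjusted p = 0.0114, 0.0416 and 0.0495. At an unadjusted p under 0.05, 4 were higher and 0 lower. Higher genes numbered 2 with DESeq2 (7.04% of all genes), 2 in the second counting (7.71%), 8 with the GC correction (12.4%), 8 with block and GC correction (14.1%), and 1 to 5 when a library was left out (5.07 to 7.72%; 1 without siCTR replicate 2). Lower genes numbered 1 with library size only (6.51%), 4 with the block (11.2%), 4 with the GC correction (11.9%), 5 with both (14.0%), and 0 to 4 when a library was left out (3.79 to 7.43%; 4 without siCTR replicate 1). Genes without overlap numbered 8 to 12 higher (17.8 to 26.7%) and 3 to 5 lower (6.67 to 11.1%) when a library was left out, where 13.9 to 17.5% of all genes were higher and 12.0 to 16.3% lower without overlap.

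Over all genes, 127 were higher and 44 lower at an adjusted p under 0.05. These counts were 210 and 113 with DESeq2, 489 and 408 with the block, 527 and 342 with the GC correction, 725 and 575 with both, and 45 to 99 and 7 to 37 when a library was left out. Without a filter 102 were lower. At an unadjusted p under 0.05 (886 higher, 776 lower), the counts were 1456 and 1398 with the GC correction, 1657 and 1648 with block and GC correction, 1323 lower with the block, and 607 to 924 higher and 454 to 889 lower when a library was left out. The causes were not tested.

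Same-numbered libraries had correlated deviations of 0.3279, 0.0744 and 0.3098, so the numbers were not taken to pair them, although 6 of 6 libraries correlated best with their own number. The replicate block left 0 recombination genes at an adjusted p under 0.05, where 7.57% of all genes were called.

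In 26 genes the sign of the fold change was the same in every alternative, and in 19 it changed in at least 1, none of which had a log2 fold change beyond 0.1765 in size. FAN1 turned to 0.026 in the second counting and USP1 to 0.00 without a filter. When a library was left out, the range was -0.076 to 0.13 for BLM, -0.23 to 0.10 for BRCA2, -0.0098 to 0.16 for BRIP1, -0.35 to 0.038 for FAN1, -0.21 to 0.0605 for FANCE, -0.14 to 0.029 for FANCF, -0.056 to 0.15 for FANCG, -0.22 to 0.10 for FANCL, -0.13 to 0.075 for GEN1, -0.029 to 0.33 for H2AFX, -0.037 to 0.14 for MRE11, -0.0104 to 0.077 for PALB2, -0.066 to 0.42 for RAD50, -0.071 to 0.19 for RBBP8, -0.12 to 0.072 for RIF1, -0.12 to 0.0101 for RMI1, -0.23 to 0.0065 for RMI2, -0.068 to 0.26 for SLX4 and -0.095 to 0.10 for USP1. Partner ratios, in alternatives chosen after seeing the data, ran from 0.43 to 0.59 for BRCA1 to BARD1, 0.39 to 0.51 for EME1 to MUS81 and -0.20 to -0.13 for MRE11 to NBN (log2 difference, a library left out).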

Other observations

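The competing route, end joining without a template, was also measured. Of 18 genes tested, 0 passed at an adjusted p under 0.05, 1 was higher and 1 lower at an unadjusted p under 0.05 (all genes 7.48% and 6.55%), and the median log2 fold change was -0.001. PAXX, which binds Ku at a break, was at 67.8, 78.1 and 61.9 CPM in siCTR and at 52.98, 51.1 and 37.8 CPM in siLSD1, so the groups did not overlap (log2 fold change -0.55, edgeR adjusted p = 0.0979). SHLD2, a subunit of shieldin, which blocks resection, was at 64.2, 70.9 and 83.0 CPM and at 79.0, 93.8 and 101 CPM, and the groups overlapped (0.33, edgeR adjusted p = 0.2852).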
